A study of Mus musculus with 6 samples.

Results

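Translation initiation factor genes of the mouse were examined in sorted rod photoreceptors. The group holds the 55 protein-coding genes, of 52143 genes in the deposited table, whose symbol starts with Eif and a digit from 1 to 6 and which lie on main chromosomes and not on patch sequences. Their 344 annotated transcripts, of 136550 in all, were read from the transcript table. The rule itself reads only symbols and annotation. All 55 genes passed the filter on low counts. RNA had been sequenced from 6 libraries of rods, 3 in each of 2 groups. On postnatal day 0, retinas of newborn mice were electroporated in vivo with a plasmid for a short hairpin RNA (shRNA) against Jun, an AP-1 transcription factor, or with the control plasmid pLKO.1-Scrambled, each at 2.5 µg/µl in 0.4 µl. Both groups also received Nrlp-EGFP at 1.5 µg/µl, in which the promoter of the rod gene Nrl drives EGFP, and on postnatal day 10 the EGFP-positive cells were sorted by flow cytometry. The design addresses the genes that need Jun while rods develop. The labels give the genotype only as control or Jun knockdown, name 1 shRNA clone, and do not say how many animals, which litters, which sex or which strain a library came from. The p-values therefore measure only how far these libraries spread, which may be technical. Values of single libraries are given in the order of replicates 1, 2 and 3, and in pairs as controls against libraries labelled Jun knockdown.

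Initiation factors load the first tRNA and the mRNA onto the small ribosomal subunit and release themselves when the start codon is found. eIF4E binds the mRNA cap, eIF4G is the scaffold, and the helicase eIF4A unwinds the leader. eIF2 carries the initiator methionine tRNA, eIF2B recharges eIF2 with GTP, and eIF2 alpha kinases block that recharging under stress. eIF3 is a large scaffold on the ribosomal subunit, while eIF1, eIF1A and eIF5 act in scanning and start codon choice.

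Library totals were 32150100 to 105801000 estimated counts in the controls and 13211300 to 13998400 in the libraries labelled Jun knockdown, so depth and group cannot be told apart. Jun itself went against the label in 2 of 3 libraries, so the label is not borne out by its RNA: its level was 6.47, 5.85 and 7.16 CPM (counts scaled to the library size with TMM) in the controls against 1.84, 17.6 and 19.3 CPM in the libraries labelled Jun knockdown, higher than every control in 2 of 3. The summed level of 10 rod markers ranged from 94253 to 115862 CPM in the controls and from 10623 to 14376 CPM in the other group, with 9 of 10 lower on average. For 9 microglia markers the ranges were 765 to 1041 and 1.75 to 5.50 CPM (9 of 9 lower on average), for 8 vascular and blood markers 167 to 335 and 2.18 to 3.99 CPM (7 of 8, with Hba-a1 at 0 in all 3 labelled libraries), and for 6 Müller glia markers 606 to 891 and 136 to 285 CPM (4 of 6). Bipolar markers went the other way, from 399 to 605 CPM to 810 to 1293 CPM, with 2 of 6 lower on average. The 6 cone markers ranged from 2065 to 6087 and from 812 to 1549 CPM (6 of 6 lower), and the 5 amacrine markers from 12.1 to 31.01 and from 0.545 to 8.64 CPM (3 of 5). Library totals and these marker sums moved with the group without overlap, as did some of the levels below. Jun overlapped between groups. Apart from a rerun with counts thinned to equal depth, the part of depth, Jun and the markers in the results was not tested. In such bulk samples fewer cells of a type and less RNA per cell cannot be told apart.

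Initiation factor genes took a smaller share of the reads in the libraries labelled Jun knockdown, but no single gene passed the test. Together they held 0.844, 0.918 and 0.885% of all counts in the 3 controls against 0.652, 0.762 and 0.714% in the 3 labelled libraries. The groups did not overlap, at 0.882 ± 0.0371% and 0.709 ± 0.0553% (SD, n = 3 each, exact permutation test, two-sided, p = 0.1, the smallest that 3 against 3 can give). By edgeR's quasi-likelihood test with Benjamini-Hochberg adjustment, 0 of 55 genes passed an adjusted p of 0.05 in either direction, where 1.67% of all 12815 tested genes did. The smallest adjusted p was 0.0570, for Eif2s3y. At an unadjusted p under 0.05 there were 12 members, 11 lower (background 10.7%) and 1 higher (6.13%). DESeq2 called 1 of the 53 members to which it gave an adjusted p (12.9% of all genes), and limma-voom 1 of 55 (3.45%), in both cases Eif2s3y.

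On the log2 scale 42 of the 55 differences were negative and 13 positive. Their median was -0.95, beside -0.12 over all tested genes and -0.32 over all tested protein-coding genes, of which 52.1% and 56.1% were negative. In 21 of 55 members the groups did not overlap (28.3% of all tested genes). In 18 of them all 3 labelled libraries lay below all 3 controls, which 15.7% of all tested genes also did. In the other 3, Eif2s3y, Eif4a2 and Eif2ak1, they lay above them (background 12.6%). The spread between libraries was wider in the labelled group: the within-group SD of log2(CPM + 1) had a median of 0.580 over members in controls and 1.20 in the labelled libraries, against 0.874 and 1.00 over all tested genes. The plot of every member by library shows these wide rows, and the plot of fold changes shows their standard errors.

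**Figure D1:**
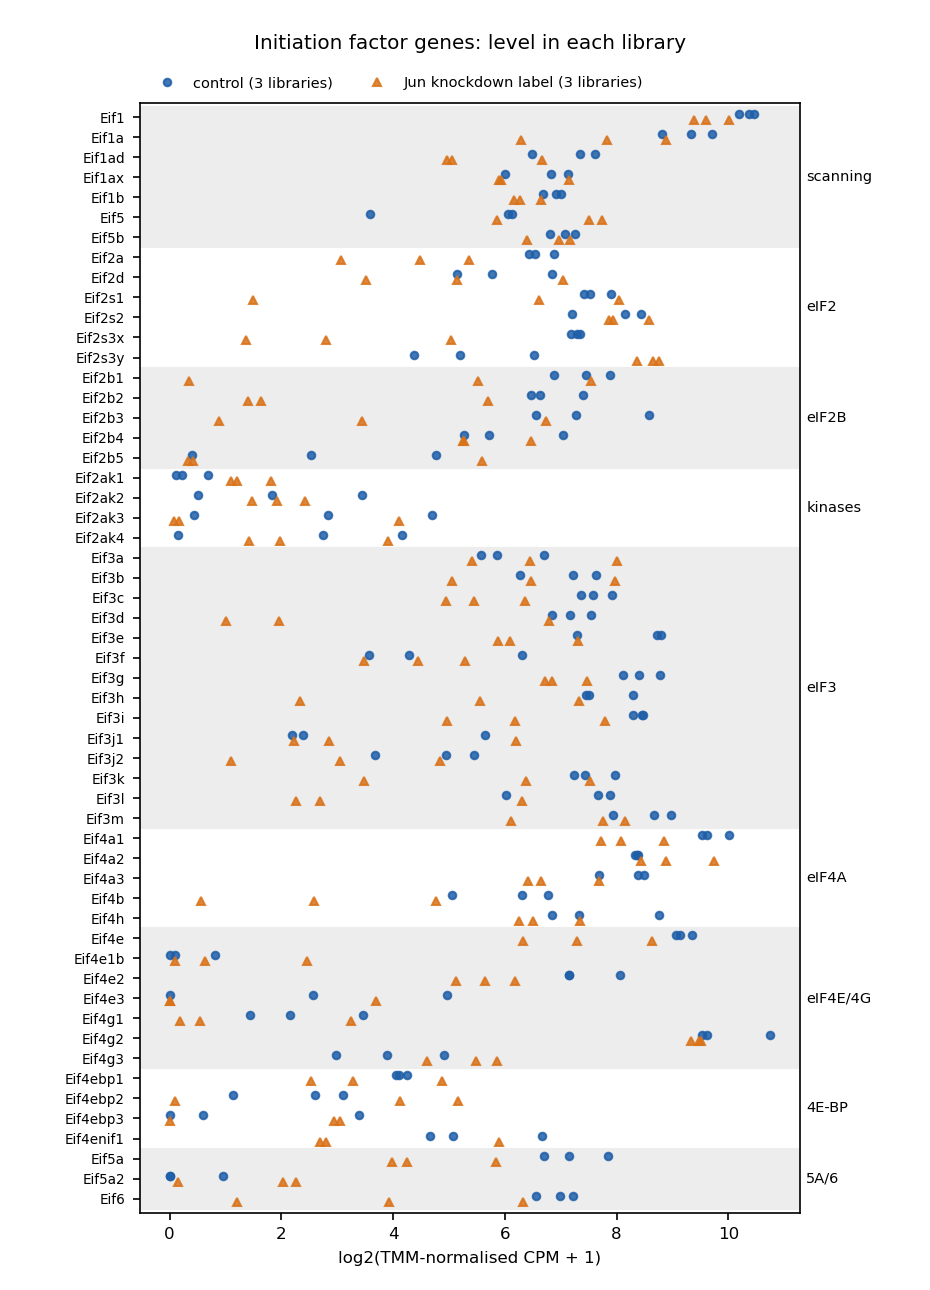
Level of each of the 55 initiation factor genes in each library, as log2(TMM-normalised CPM + 1); circles are the 3 controls and triangles the 3 libraries labelled Jun knockdown, with genes grouped by role. The triangles of genes such as Eif2s1, Eif2b1 and Eif3d, spread over several log2 units.

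**Figure D2:**
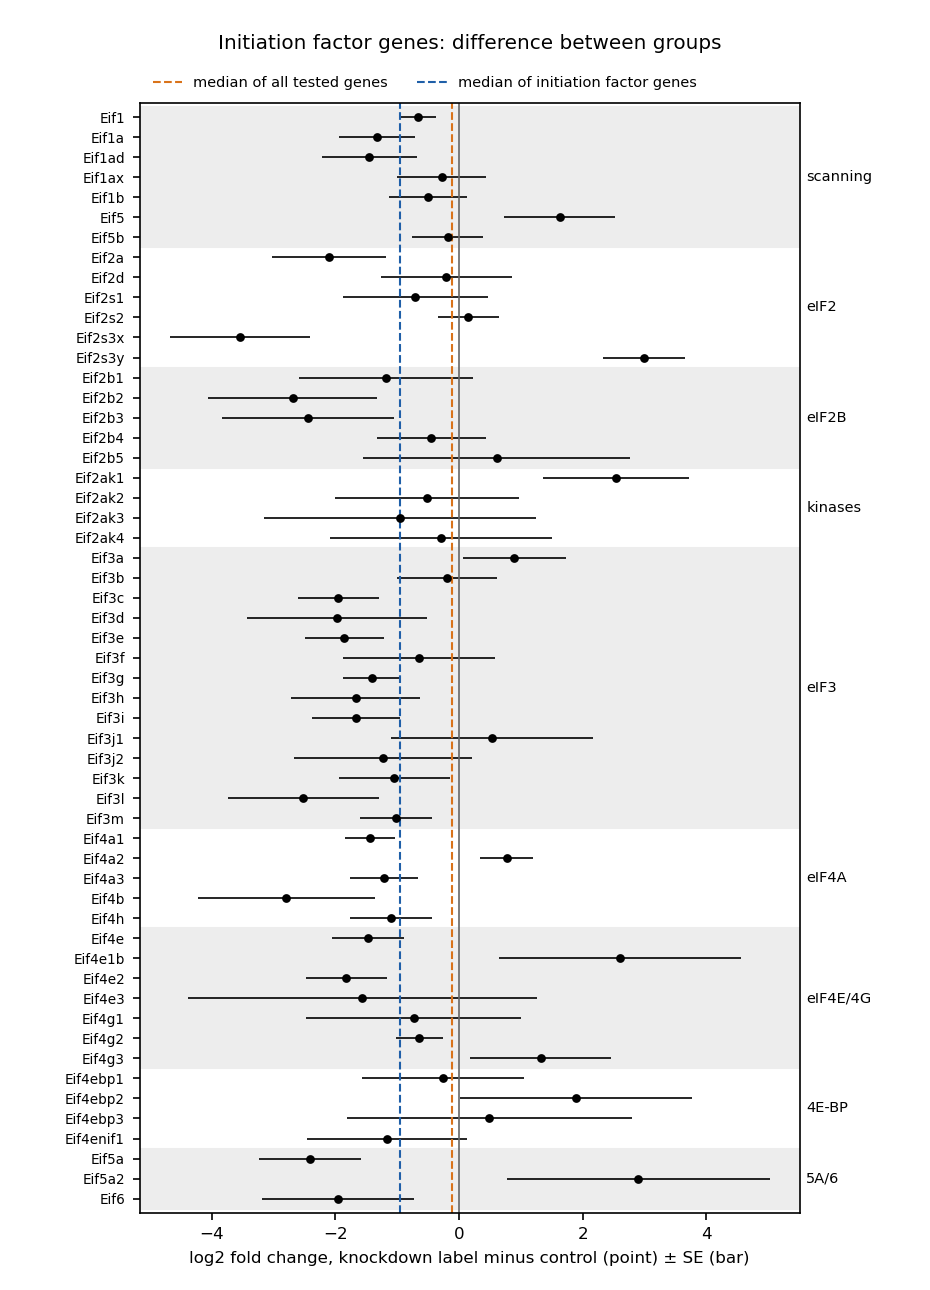
Log2 difference between groups for each of the 55 genes (point) with its standard error (bar), by role. Dashed lines mark the median of the initiation factor genes (-0.95) and of all tested genes (-0.12); 42 points lie left of 0.

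The eIF4A helicases held the clearest change, and it lay between transcripts of 1 gene. Eif4a1 (ENSMUSG00000059796, chromosome 11, 69666936 to 69672423, minus strand, GRCm38) encodes the main eIF4A helicase. Its gene level was 734, 788 and 1033 CPM in the controls against 462, 210.2 and 269 CPM in the libraries labelled Jun knockdown. No labelled library reached the lowest control, and the log2 difference was -1.44 (SE 0.40, adjusted p = 0.108) by edgeR. Behind this level stood 2 different transcripts. Eif4a1-213 is the full protein-coding form, with 11 exons and 1774 bases, and Eif4a1-202 is annotated as a retained-intron form, with 7 exons and 3167 bases.

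Eif4a1-202 stood at 0.463, 0.625 and 0.952 CPM in the controls, from 15, 45 and 25 estimated counts, and at 268, 179 and 150.4 CPM in the libraries labelled Jun knockdown, from 4173, 3298 and 2475 counts. It was close to absent in every control and abundant in every labelled library, and it rose by 8.19 on the log2 scale (SE 0.93, edgeR adjusted p = 0.0146 over 20706 tested transcripts). DESeq2 (adjusted p = 8.17e-06) and limma-voom (0.00948) called it too. With 1 library left out the adjusted p ranged from 0.0389 to 0.119, and the call ended without control replicate 1, 2 or 3 (0.119, 0.0906 and 0.0999) or knockdown replicate 1 (0.0585), while the log2 difference stayed between 7.90 and 8.42.

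The protein-coding form Eif4a1-213 was at 674, 875 and 1022 CPM in the controls against 239, 105 and 83.2 CPM in the libraries labelled Jun knockdown. These groups did not overlap either, but the difference of -2.59 (SE 0.50, adjusted p = 0.0729) did not pass. Eif4a1-201, a shorter form annotated as a target of nonsense-mediated decay, was at 67.1, 63.7 and 58.9 against 40.9, 11.8 and 13.8 CPM, a difference of -1.51 (SE 1.02, adjusted p = 0.562). As shares of all Eif4a1 transcript counts, which need no scaling between libraries, Eif4a1-202 took 0.0642, 0.0661 and 0.0897% in the controls against 48.8, 60.3 and 55.8% in the labelled libraries. Eif4a1-213 took 90.5, 93.1 and 94.4% against 43.5, 35.5 and 30.9%. All retained-intron forms of the gene together took 0.152 ± 0.0753% and 55.0 ± 5.80% (SD, n = 3 each; p = 0.1 by the exact permutation test, its minimum here).

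**Figure D3:**
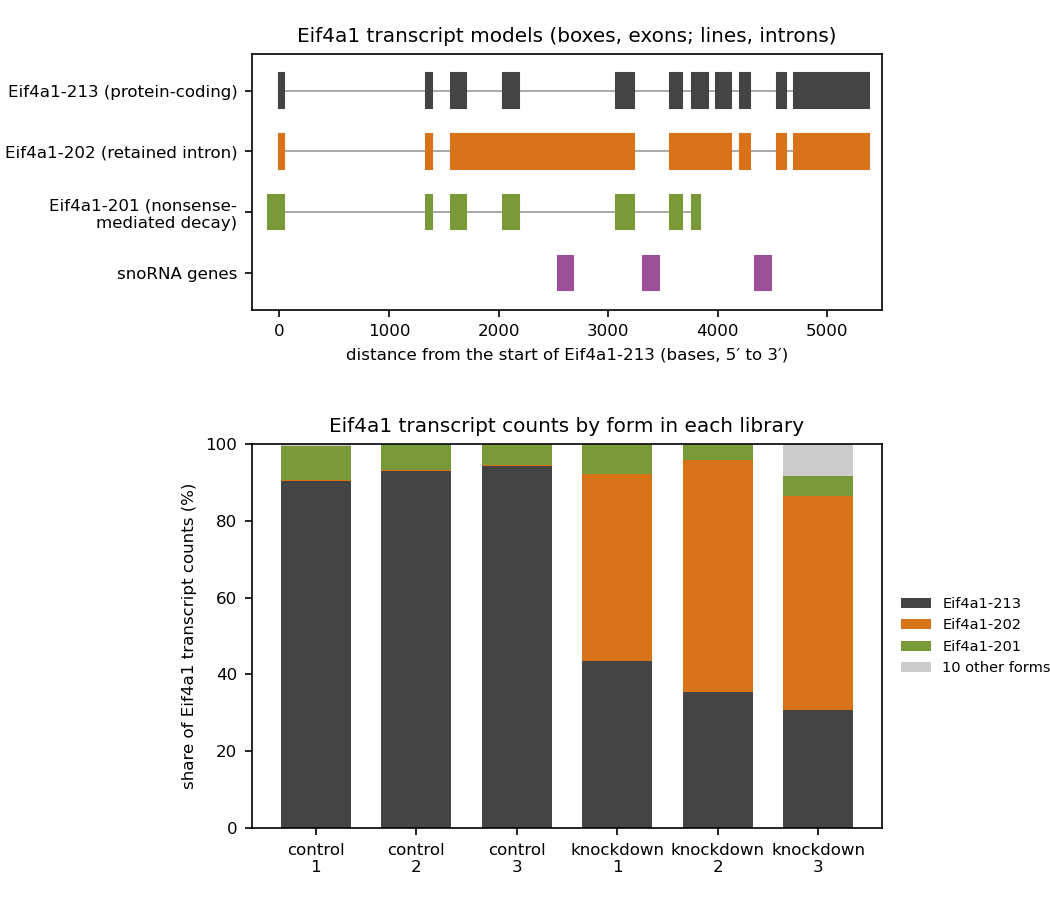
Upper panel, exons of 3 Eif4a1 transcripts and the snoRNA genes inside the gene, by distance in bases from the start of Eif4a1-213; lower panel, share of Eif4a1 transcript counts by form in each library (%). The retained-intron form Eif4a1-202 holds at most 0.0897% in each control and 48.8% to 60.3% in each library labelled Jun knockdown.

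Eif4a1-202 keeps introns 3, 4, 6 and 7 of the 10 introns of Eif4a1-213, of 342, 886, 95 and 71 bases, 1394 bases in all. Introns 1, 2, 5, 8, 9 and 10 are spliced in both. Intron 4 also holds the snoRNA gene Gm22988, while the snoRNA genes Gm25835 and Gm24029 lie in introns 5 and 9, which are not retained. The sequences that separate the forms are printed here, 5′ to 3′ on the transcribed strand (GRCm38, introns from GENCODE vM21). Lower case is exon and capitals are the intron kept in Eif4a1-202. For introns 6 and 7 (chr11:69668529-69668663 and chr11:69668314-69668424, each with 20 exon bases on either side) the whole intron is given after the spliced junction of Eif4a1-213. For introns 3 and 4 (chr11:69670575-69670634 and chr11:69670093-69670152) only the first 40 bases are given.
intron 6, spliced: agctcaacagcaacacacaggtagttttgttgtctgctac
intron 6, retained: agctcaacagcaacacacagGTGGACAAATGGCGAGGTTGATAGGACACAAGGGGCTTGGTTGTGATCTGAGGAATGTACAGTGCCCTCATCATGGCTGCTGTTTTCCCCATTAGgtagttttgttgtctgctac
intron 7, spliced: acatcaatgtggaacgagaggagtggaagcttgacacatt
intron 7, retained: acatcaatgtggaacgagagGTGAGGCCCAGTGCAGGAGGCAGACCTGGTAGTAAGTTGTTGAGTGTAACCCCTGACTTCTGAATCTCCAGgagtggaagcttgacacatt
intron 3, spliced: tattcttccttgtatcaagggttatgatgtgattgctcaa
intron 3, start retained: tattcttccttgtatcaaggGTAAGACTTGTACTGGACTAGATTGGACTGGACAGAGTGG
intron 4, spliced: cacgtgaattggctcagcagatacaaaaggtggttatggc
intron 4, start retained: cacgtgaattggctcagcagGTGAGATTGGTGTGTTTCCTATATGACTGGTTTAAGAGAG

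Retained-intron forms of other genes also tended to be higher in the libraries labelled Jun knockdown. Of the 344 member transcripts, 107 were tested. Besides Eif4a1-202 as higher (0.058% of all tested transcripts passed as higher), Eif1-201 passed as lower (0.604%). In 46 tested member transcripts the groups did not overlap (background 30%). In 32 of them the labelled libraries all lay below the controls (background 17.6%) and in 14 above them (12.4%). Of 100 retained-intron transcripts of the members, 14 were tested and 12 of these were positive, with a median log2 difference of 2.75. The 3200 tested retained-intron transcripts of all genes had a median of 1.21, with 2231 positive, against -0.18 over all tested transcripts. Eif4a1-202 was 1 of 3 retained-intron transcripts of any gene that passed as higher, 0.0938% of those tested. Protein-coding forms of the members, 78 of them tested, had a median of -1.50, with 58 negative. The same values were not taken over protein-coding forms of all genes, so they cannot be read as particular to the members.

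As a share of all member transcript counts, retained-intron forms took 1.05, 1.65 and 0.205% in the controls against 8.96, 9.06 and 8.07% in the libraries labelled Jun knockdown, 0.968 ± 0.727% against 8.69 ± 0.546%. Without Eif4a1 the shares were 1.10, 1.77 and 0.209% against 4.72, 6.06 and 5.85%. In all other protein-coding genes they were 2.80, 3.58 and 3.39% against 7.98, 9.63 and 7.84%. Each of these 3 comparisons had no overlap between groups (n = 3 each; p = 0.1 by the exact permutation test, its minimum here), and the higher share was also seen outside the initiation factors. The plot of retained-intron shares sets Eif4a1 beside the other members and all other genes.

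**Figure D4:**
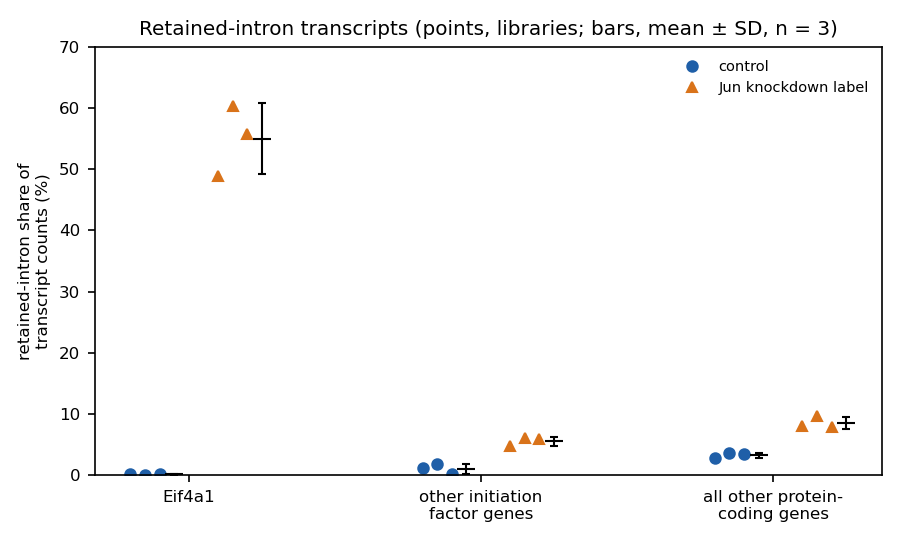
Share of transcript counts in retained-intron forms (%), for Eif4a1, for the other 54 initiation factor genes and for all other protein-coding genes; points are libraries and bars the mean ± SD (n = 3). In the libraries labelled Jun knockdown Eif4a1 stands at 55.0%, the other members at 5.54% and all other genes at 8.48%.

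Gene by gene the difference was uneven. Of 34 members with an annotated retained-intron form, 24 had at least 50 transcript counts in every library. Their retained-intron share was higher on average in the labelled group in 14 and lower in 8, with a median difference of 0.227 percentage points. It did not overlap between groups in 5 as higher (Eif4a1, Eif2a, Eif4a2, Eif3e and Eif3i) and in 1 as lower (Eif3g). Such counts were not taken over all genes, so they cannot be read as particular to the members. In Eif2a, a factor for non-canonical initiator tRNA delivery, the share was 1.53, 1.51 and 4.07% in the controls against 35.0, 31.1 and 99.8% in the labelled libraries. For Eif4a2 it was 1.63, 9.03 and 0.115% against 20.7, 19.6 and 32.5%. In Eif3e it was 0.131, 0.0442 and 0.0592% against 0.434, 14.5 and 0.284%, with 1 labelled library above the other two, and in Eif3i 0.0163, 0.0213 and 0.110% against 0.872, 0.219 and 0.185%. In Eif5b it was high in 2 controls and in 1 labelled library (58.1, 61.6 and 2.84% against 0, 0 and 78.1%).

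Eif4a2 encodes the paralogous helicase, and by gene counts its level was higher, not lower, in the labelled libraries. Gene counts are not plain sums of transcript counts, so this direction is that of the gene counts. It stood at 331, 322 and 328 CPM in the controls against 853, 346 and 473 CPM in the libraries labelled Jun knockdown, without overlap but with a difference of 0.77 (SE 0.43, adjusted p = 0.394). Within each library the log2 ratio of Eif4a1 to Eif4a2 gene counts was 1.15, 1.29 and 1.65 in the controls and -0.88, -0.72 and -0.81 in the labelled libraries. Eif4a1 was thus the more counted gene in every control and Eif4a2 in every labelled library, a difference of -2.17 (exact permutation p = 0.1, the smallest possible). With transcript sums in place of gene counts the log2 ratio was 0.64, 1.20 and 1.41 against -0.25, -0.29 and -0.52. The difference was then -1.44. Eif4a3, an exon junction helicase, was at 206, 357 and 333 against 99.0, 204 and 84.1 CPM, the highest labelled library just under the lowest control. The helicase cofactor Eif4b was at 32.3, 109 and 78.3 CPM in the controls against 0.476, 26.1 and 5.04 CPM in the labelled libraries, which differed widely among themselves. Their log2 differences were -1.21 (SE 0.54, adjusted p = 0.305) and -2.79 (SE 1.43, adjusted p = 0.357). The other cofactor, Eif4h, overlapped between groups (114, 432 and 159 against 162, 75.5 and 89.8 CPM).

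Among the cap-binding proteins and eIF4G scaffolds, 3 of 7 genes did not overlap between groups, all lower in the labelled libraries (15.7% of all genes), and 0 passed. Eif4e, the cap-binding protein itself, was at 536, 652 and 562 CPM in the controls against 78.8, 396 and 156 CPM in the libraries labelled Jun knockdown. Knockdown replicate 2 came nearest to the controls, and the difference was -1.47 (SE 0.58, adjusted p = 0.244). Eif4e2, a cap-binding homologue that acts as a translational repressor, was at 266, 141 and 141 against 72.0, 34.1 and 48.9 CPM, a difference of -1.82 (SE 0.66, adjusted p = 0.208). Eif4g2, a scaffold that lacks the eIF4E binding site, had the highest mean CPM of these 7 genes, at 739, 1711 and 787 against 643, 726 and 708 CPM. Its highest value was control replicate 2, and the difference was -0.64 (SE 0.38, adjusted p = 0.429). The canonical scaffolds were lower in level: Eif4g1 stood at 1.70, 10.0 and 3.46 against 0.136, 8.52 and 0.458 CPM, and Eif4g3 at 29.0, 6.86 and 13.8 against 43.5, 57.2 and 23.4 CPM. Most Eif4g3 transcript counts were those of the non-coding form Eif4g3-208. It took 56.3, 99.6 and 95.9% in the controls against 100, 96.2 and 99.8% in the labelled libraries. The germline homologue Eif4e1b and Eif4e3 were at 0 or near it in several libraries of both groups.

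The eIF4E-binding repressors and the eIF4E transporter showed no common direction, with 2 of 4 differences negative and a median of 0.12. Eif4ebp1, a repressor that TOR kinase switches off, was at 16.2, 18.0 and 15.5 CPM in the controls against 4.76, 8.69 and 28.4 CPM in the libraries labelled Jun knockdown, on both sides of the narrow control range. Eif4ebp2, which is prominent in neurons, was at 5.05, 7.60 and 1.19 against 34.8, 16.4 and 0.0654 CPM, a difference of 1.89 (SE 1.87, adjusted p = 0.644) that turned negative with limma-voom (-0.05). Eif4ebp3 was at 9.43, 0.511 and 0 against 0, 6.66 and 7.33 CPM. Eif4enif1, which carries eIF4E into the nucleus and to processing bodies, was at 24.3, 100.2 and 32.8 against 58.7, 5.98 and 5.50 CPM, a difference of -1.17 (SE 1.29, adjusted p = 0.681). All 4 genes overlapped between groups.

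The gamma subunit of eIF2 is encoded by a gene on each sex chromosome, and the differences of the copies had opposite signs. Eif2s3y, on the Y chromosome, was at 19.8, 35.7 and 90.4 CPM in the controls against 431, 399.8 and 329.8 CPM in the libraries labelled Jun knockdown. Every labelled library lay far above every control, and the difference of 2.99 (SE 0.66) just missed the threshold with edgeR (adjusted p = 0.0570), while DESeq2 (0.0337) and limma-voom (0.0206) called it. Eif2s3x, on the X chromosome, was at 162, 144 and 155 CPM in the controls, which lay close together, against 31.9, 5.92 and 1.57 CPM in the labelled libraries. Its difference was -3.55 (SE 1.13, adjusted p = 0.160). Of the counts of both genes, Eif2s3y took 10.9, 19.9 and 36.9% in the controls against 93.1, 98.5 and 99.5% in the labelled libraries (exact permutation p = 0.1, the smallest possible). These gene levels take in all forms. Retained-intron forms took 47.0, 27.6 and 1.60% of Eif2s3y transcript counts in the controls against 45.2, 43.6 and 44.4% in the labelled libraries. The coding form Eif2s3y-201 overlapped between groups, with its values given under the other observations.

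Other genes of the sex chromosomes, chosen after the Eif2s3y values were seen, did not differ in 1 direction. Among Y genes, Uty, a histone demethylase homologue, was at 68.6, 1.84 and 20.6 CPM in the controls against 374, 113 and 75.1 CPM in the libraries labelled Jun knockdown, without overlap. The Y helicase Ddx3y (123, 119 and 1.37 against 39.3, 22.3 and 54.8 CPM) and the Y demethylase Kdm5d (1.76, 70.1 and 2.16 against 161, 52.9 and 7.0 CPM) overlapped between groups. Among X genes, Ddx3x (211, 153 and 105.8 against 202, 185 and 386 CPM) and Kdm6a, the X counterpart of Uty (21.7, 97.3 and 12.7 against 3.06, 81.6 and 86.9 CPM), overlapped, while the demethylase Kdm5c was lower in all 3 labelled libraries (15, 8.61 and 34.2 against 2.45, 3.21 and 2.42 CPM). Xist, the RNA that coats the inactive X chromosome, was at 10.5, 37.9 and 38.5 against 834, 33.1 and 93.9 CPM. Y-linked RNA and Xist were both present in every library. The labels give no sex for any library, and its part in these values was not tested.

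**Figure D5:**
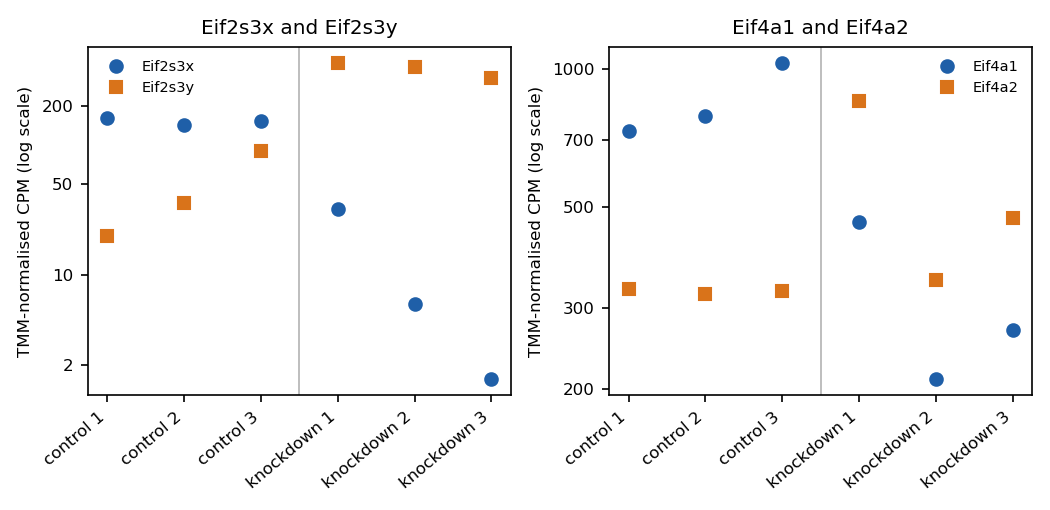
TMM-normalised CPM (log axis) of the X and Y copies of the eIF2 gamma gene (left) and of the helicase genes Eif4a1 and Eif4a2 (right) in each of the 6 libraries. Eif2s3y is above Eif2s3x, and Eif4a2 above Eif4a1, in all 3 libraries labelled Jun knockdown and in no control. Levels are those of the genes, over coding and other forms.

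The other eIF2 genes gave no common direction. Eif2s1, the alpha subunit that stress kinases phosphorylate, was at 169, 183 and 237 CPM in the controls against 263, 1.80 and 96.3 CPM in the libraries labelled Jun knockdown. Replicate 1 of the labelled group was above every control and replicate 2 almost without counts, and the difference was -0.70 (SE 1.17, adjusted p = 0.796). The beta subunit gene Eif2s2 was at 344, 146 and 281 against 379, 233 and 245 CPM, a difference of 0.15 (SE 0.49, adjusted p = 0.898) whose sign changed without control replicate 2 (-0.12) or knockdown replicate 1 (-0.13). Eif2a was at 85.5, 92.03 and 117 against 7.35, 40.05 and 21.3 CPM, without overlap, a difference of -2.10 (SE 0.93, adjusted p = 0.295). Eif2d, another factor for non-canonical tRNA delivery, overlapped between groups (53.6, 34.5 and 114 against 34.3, 10.4 and 131 CPM).

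The 5 subunits of eIF2B, the exchange factor of eIF2, were the least even of the role groups across the labelled libraries, with a median SD of log2(CPM + 1) of 2.93 there and 0.924 in controls. Eif2b2, the beta subunit, was at 87.8, 167 and 98.4 CPM in the controls against 1.63, 50.9 and 2.09 CPM in the libraries labelled Jun knockdown. It was the only one of the 5 without overlap, as lower (15.7% of all tested genes), with a difference of -2.69 (SE 1.37, adjusted p = 0.352). The gamma subunit Eif2b3 was at 381, 93.4 and 155 against 105, 9.87 and 0.850 CPM (log2 difference -2.44, SE 1.39, adjusted p = 0.404). The alpha subunit Eif2b1 was at 234, 173 and 117 against 0.272, 186 and 45.0 CPM (log2 difference -1.18, SE 1.40, adjusted p = 0.708). In each of these 3 genes a single labelled library held most of that group's level, replicate 2 for Eif2b2 and Eif2b1 and replicate 1 for Eif2b3. The delta and epsilon subunits, Eif2b4 and Eif2b5, had differences of -0.45 and 0.61 with standard errors of 0.88 and 2.16.

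The eIF2 alpha kinases were weakly expressed. Eif2ak1, the kinase activated by haem shortage, was at 0.165, 0.0888 and 0.612 CPM in the controls against 1.16, 2.54 and 1.31 CPM in the libraries labelled Jun knockdown, from 6, 8 and 17 against 17, 45 and 20 counts. The groups did not overlap, and the difference was 2.54 (SE 1.18, adjusted p = 0.317). Eif2ak3, the endoplasmic reticulum stress kinase, was at 6.17, 25.0 and 0.360 against 16.1, 0.0564 and 0.131 CPM (log2 difference -0.95, SE 2.20, adjusted p = 0.855), and 1 library of each group set its mean. Without control replicate 2 its difference was 0.79. Eif2ak2, the kinase activated by double-stranded RNA, was at 9.87, 0.422 and 2.56 against 1.77, 4.40 and 2.81 CPM (log2 difference -0.52, SE 1.49, adjusted p = 0.887), with a sign that changed under library totals, limma-voom and 3 other alternatives. Eif2ak4, the amino acid shortage kinase, was at 0.110, 5.74 and 17.0 against 14.0, 1.69 and 2.94 CPM.

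Genes that respond when eIF2 alpha is phosphorylated, a list of 14 symbols of the integrated stress response, were all negative among the 8 tested, with a median of -2.18. None of the 8 passed with edgeR (1.67% of all genes passed), 4 had an unadjusted p under 0.05 (16.8%), DESeq2 called 2 (12.9%) and limma-voom 1 (3.45%). In 6 of the 8 the labelled libraries all lay below the controls (15.7%). The percentages are shares of all genes. Atf4, the transcription factor whose translation rises in this response, was at 462, 605 and 659 CPM in the controls against 126, 183 and 49.4 CPM in the libraries labelled Jun knockdown (log2 difference -2.27, SE 0.54, adjusted p = 0.0691). Ppp1r15a, the subunit that directs dephosphorylation of eIF2 alpha, was at 24.3, 23.5 and 18.97 against 0.272, 0 and 0.0654 CPM, near 0 in every labelled library. Its edgeR adjusted p was 0.0961, with 5.45e-06 by DESeq2 and 0.0176 by limma-voom.

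Of 14 eIF3 subunit differences 12 were negative (52.1% of all genes), with a median of -1.32. In 5 of the 14 the labelled libraries all lay below the controls (15.7% of all genes). None passed, and 4 had an unadjusted p under 0.05 as lower (10.7%). Eif3c, a core subunit, was at 190.0, 242 and 164 CPM in the controls against 81.4, 42.5 and 29.8 CPM in the libraries labelled Jun knockdown, well apart, with a difference of -1.95 (SE 0.65, adjusted p = 0.177). Eif3g, which binds RNA during scanning, was at 338, 277 and 438 against 105, 177 and 114 CPM (log2 difference -1.41, SE 0.47, adjusted p = 0.177). Eif3e was at 442, 155 and 422 against 157, 67.1 and 58.0 CPM (log2 difference -1.85, SE 0.63, adjusted p = 0.186), where control replicate 2 lay just under the highest labelled library. Eif3i, at 356, 351 and 314 CPM, was even across the controls and ranged widely in the labelled libraries, at 30.2, 71.5 and 219 CPM (log2 difference -1.67, SE 0.71, adjusted p = 0.281).

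In Eif3d and Eif3h, knockdown replicate 3 lay close to the controls and the other two labelled libraries far below. Eif3d, the subunit with a cap-binding activity of its own, was at 143, 185 and 114 CPM in the controls against 1.02, 2.88 and 109 CPM in the libraries labelled Jun knockdown. Its adjusted p was 0.528 with all libraries and 0.0561 without that replicate, where the difference went from -1.97 to -6.27. Eif3h was at 312, 175 and 180.4 against 4.02, 46.1 and 159 CPM (log2 difference -1.67, SE 1.05, adjusted p = 0.451). Eif3m had the highest mean CPM of the eIF3 genes, at 407, 244 and 499 against 68.1, 216 and 284 CPM (log2 difference -1.02, SE 0.59, adjusted p = 0.414). Eif3a, the largest subunit, and Eif3j1 were the positive ones, at 0.89 and 0.54. Eif3b, Eif3f, Eif3j2, Eif3k and Eif3l overlapped between groups, with differences from -2.52 for Eif3l to -0.19 for Eif3b.

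Among the scanning factors, Eif1, which keeps the ribosome open until the right start codon is reached, ranked first by mean TPM in both groups. Its gene level was 1412, 1170.2 and 1315 CPM in the controls against 672, 771 and 1028 CPM in the libraries labelled Jun knockdown, without overlap, a difference of -0.66 (SE 0.29, adjusted p = 0.292). The main protein-coding transcript, Eif1-201, was at 1928, 1713 and 1663 against 492, 654 and 609.9 CPM. It fell by 1.60 on the log2 scale (SE 0.24, edgeR adjusted p = 0.0385). Limma-voom called it (0.0124) and DESeq2 did not (0.496). The call ended when any 1 of the 6 libraries was left out (adjusted p 0.0854 to 0.176) and with upper quartile (0.128, difference -0.89), library totals (0.149, -0.80) or thinning to equal depth (0.0689).

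As a share of Eif1 transcript counts, Eif1-201 took 96.5, 97.3 and 95.8% in the controls against 87.1, 88.6 and 78.1% in the labelled libraries. The non-coding form Eif1-202 took 1.14, 2.64 and 2.26% against 12.9, 11.2 and 15.7%, without overlap. Eif1a, the partner of eIF1 on the ribosomal subunit, was at 839, 645 and 447 CPM in the controls against 77.5, 225 and 471 CPM in the libraries labelled Jun knockdown (log2 difference -1.32, SE 0.62, adjusted p = 0.319), with knockdown replicate 3 inside the control range. Eif1ad was at 161, 88.9 and 194 against 32.4, 30.4 and 100.1 CPM (log2 difference -1.45, SE 0.77, adjusted p = 0.373), and Eif1b, a close homologue of Eif1, at 128, 1.2e+02 and 101 against 71.1, 76.4 and 99.4 CPM (log2 difference -0.50, SE 0.63, adjusted p = 0.724). Only the values of Eif1 and Eif1b did not overlap among the 7 scanning genes, as lower (15.7% of all tested genes). Eif5, which triggers GTP hydrolysis on eIF2, was the only positive one, at 65.9, 69.0 and 11.05 against 57.0, 213 and 182 CPM (log2 difference 1.63, SE 0.90, adjusted p = 0.393). The X-linked Eif1ax and the subunit-joining factor Eif5b overlapped, at -0.28 and -0.18.

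Eif5a encodes the hypusine-containing factor that helps ribosomes past difficult peptide bonds, and Eif6 a factor that keeps large ribosomal subunits apart from small ones. Eif5a was at 230.4, 141 and 103 CPM in the controls against 56.2, 17.9 and 14.8 CPM in the libraries labelled Jun knockdown, without overlap (log2 difference -2.42, SE 0.83, adjusted p = 0.186). Eif6 was at 92.7, 148 and 125 against 14.2, 78.7 and 1.31 CPM, also without overlap (log2 difference -1.95, SE 1.23, adjusted p = 0.456). The paralogue Eif5a2 was almost without counts, at 0.932, 0 and 0 against 3.81, 0.113 and 3.07 CPM (log2 difference 2.90, SE 2.13, adjusted p = 0.525).

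Adjacent steps of translation gave 1 call with edgeR. Of 13 elongation and termination factor genes 10 were tested and 8 were negative (median -1.26). In 4 of the 10 the labelled libraries all lay below the controls (15.7% of all genes). DESeq2 called 3 of the 11 to which it gave an adjusted p (12.9%), and limma-voom 2 of 10 (3.45%). With edgeR 1 passed as lower (background 1.35%). This was Eef1a1, which delivers tRNAs to the elongating ribosome, at 1123, 1143 and 1245 CPM in the controls against 192, 217 and 269.8 CPM in the libraries labelled Jun knockdown. It fell by 2.37 on the log2 scale (SE 0.32, edgeR adjusted p = 0.0117), and the call ended without control replicate 1 (0.0588) or 3 (0.0681). Eef1d, a subunit of its exchange factor, was at 36.7, 45.3 and 24.8 against 0.749, 1.80 and 0.720 CPM. Its adjusted p was 0.116 by edgeR, 1.9e-05 by DESeq2 and 0.0449 by limma-voom. Of 18 cap, poly(A) and reinitiation partner genes 17 were tested and 0 passed (unadjusted 1, 0 by DESeq2 and limma-voom), with 10 positive and a median of 0.19. Its 2 smallest p-values were those of Gigyf2, the partner of the cap-binding repressor eIF4E2, at 48.9, 16.6 and 3.38 against 40.3, 247 and 121 CPM (log2 difference 2.56, SE 1.13, adjusted p = 0.294), and of Mcts1, a reinitiation factor, at 289, 87.8 and 164 against 415, 281 and 451 CPM (log2 difference 1.09, SE 0.53, adjusted p = 0.336). Of 18 TOR pathway genes 16 were tested and 0 passed by edgeR, DESeq2 or limma-voom (0 at an unadjusted p under 0.05), with 8 negative and 8 positive. Its 2 smallest p-values were those of Tsc2, at 28.7, 1.33 and 6.08 against 55.4, 2.71 and 209.9 CPM (log2 difference 2.89, SE 1.61, adjusted p = 0.395) and of Tsc1, at 2.28, 39.4 and 0.684 against 229, 103 and 2.22 CPM (log2 difference 2.98, SE 1.78, adjusted p = 0.429), which together restrain TOR. Both overlapped between groups, and with 1 library left out the difference ranged from 1.30 to 4.54 for Tsc2 and from 1.89 to 6.26 for Tsc1.

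Length-normalised levels (TPM, transcript counts over transcript length) allow genes to be ranked. They sum all annotated forms of a gene, retained-intron and other non-coding forms included. In controls the order was led by Eif1 at 1563 ± 52.8 TPM, Eif4a1 at 605 ± 114, Eif3g at 386 ± 72.8 and Eif3i at 363 ± 44.5 (mean ± SD, n = 3). Eif1 stood apart by more than its spread, and so did Eif4a1 from Eif3g, while neighbours from rank 3 to rank 7 differed by less than their SDs. In the libraries labelled Jun knockdown Eif1 was still first, at 1124 ± 238 TPM, followed by Eif4a2 at 473 ± 176, Eif2s3y at 379 ± 81.5 and Eif4a1 at 289 ± 108. Mean retained-intron shares of Eif4a2, Eif2s3y and Eif4a1 transcript counts were 24.3, 44.4 and 55.0% there against 3.59, 25.4 and 0.152% in the controls. In the controls Eif4a2 had rank 12, at 242 ± 7.64 TPM, and Eif2s3y rank 33, at 43.7 ± 35.3 TPM. The kinase genes, Eif4e1b and Eif5a2 took ranks from 48 to 55 in both orders.

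Because Jun binds DNA as part of AP-1, the promoters were searched for its motif TGANTCA, a palindrome read on both strands, from 250 bases before to 50 after the start (RefSeq, GRCm38.p6). Of 43 members with a promoter in that set, 5 held it (11.6%), against 8.97% of 27025 genes. Counted by promoter, 5 of 56 member promoters held it (8.93%), against 7.81% of all promoters of this length, and the other 12 members had none to search. The motif lay 157 bases before the start in Eif1, 185 in Eif2ak3, 73 in Eif3f and 248 in Eif3l, counted from its first base, and after the start in Eif3j1. The windows of the first 4 are shown on the strand of the gene with the motif in capitals, since they are the members in which AP-1 letters lie upstream: Eif1 chr11:100319780-100319810, Eif2ak3 chr6:70844318-70844348, Eif3f chr7:108934330-108934360 and Eif3l chr15:79074973-79074993.
Eif1: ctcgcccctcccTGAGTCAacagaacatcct
Eif2ak3: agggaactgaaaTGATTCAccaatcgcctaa
Eif3f: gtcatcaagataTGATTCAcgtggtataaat
Eif3l: tgTGAGTCAacagggtctagg
A match is a description of these letters and not a binding site. The log2 differences of these genes were -0.66, -0.95, -0.64 and -2.52, and 0.54 for Eif3j1.

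Some members share sequence with other genes, so that their counts may be split. Of the 31-base words in the transcripts of a member, a median of 6.25% also occurred in another gene, over 10% in 21 members and over 50% in 3. Eif3j2 shared 94.9% (mostly with Eif3j1), Eif4ebp3 66.4%, Eif3j1 53.6% and Eif3d 40.2% (mostly with the antisense gene Gm17638), so their values are uncertain. Eif2s3x shared 35.6%, mostly with Gm2223, and Eif4a1 31.1%, mostly with the pseudogene Eif4a-ps4, which itself was at 2.44, 0.822 and 2.34 CPM in the controls against 0, 0 and 1.83 CPM in the libraries labelled Jun knockdown. No step that marks strand is stated, so reads of overlapping antisense genes cannot be told apart.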

How the data were processed

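Initiation factor genes and lists were chosen with earlier results of these data known. The authors deposited estimated counts per gene and per transcript and a normalised gene signal named as CPM, whose columns summed to between 1250540 and 2385210. The submitters' processing notes name Trimmomatic 0.39, kallisto 0.44.0 and edgeR 3.28.1; the build used is not given in the sources here. Per the labels' protocols, cDNA was made with SMART-seq v4 and tagmented with Nextera XT. Deposited counts were rounded, passed through filterByExpr and TMM scaling, and tested in edgeR 4.0.16 (R 4.3.3, quasi-likelihood, group only) over all 12815 genes and 20706 transcripts, with Benjamini-Hochberg adjustment at 0.05. Each SE is the log2 difference over the square root of F. Gene counts are not plain sums of transcript counts, so gene and transcript CPM are not on 1 scale. Shares and ratios had two-sided exact permutation tests of 3 against 3. Transcript types and lengths came from GENCODE vM21, which held all 55 members, 52 at the deposited coordinates.

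Values in every library are given for members past the threshold, the 3 smallest p and the highest mean per role group, members without overlap and at least 5 CPM, Eif4a1, Eif4a2, Eif4e, Eif5a, Eif2s1, the tested Eif4a1 transcripts and, per pathway list, those past the threshold and the 2 smallest p; a few more were added after their values were seen. Alternatives were other scalings and filters, DESeq2 1.42.0, limma 3.58.1 (voom, and trend on the deposited signal plus 0.5 or 2), thinning, omission of each library in turn, and a replicate block. The edgeR, limma-voom and DESeq2 fits, at their main settings, were first tested on simulated gene counts. No sample column was left out (0 columns).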

Additional observations from a re-analysis of the deposited data

How the results depend on the processing

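Over 47 named genes and transcripts and 788 recomputed values, 739 kept direction and side of the threshold, 21 newly passed it, 18 no longer did and 10 changed sign, none of the last past the threshold. The sign changed for Eif2ak2 with library totals (0.0777), limma-voom (0.52), the replicate block (0.28), the deposited signal plus 0.5 (0.0212) and without control replicate 1 (0.97), for Eif4ebp2 with limma-voom (-0.0474), for Eif2ak3 (0.79) and Eif2s2 (-0.12) without control replicate 2, for Eif4ebp3 without control replicate 3 (-0.0518) and for Eif2s2 without knockdown replicate 1 (-0.13). With 1 library left out the difference ranged from -6.80 to 0.79 for Eif2ak3, from -1.03 to 0.97 for Eif2ak2, from -0.13 to 0.38 for Eif2s2 and from -0.05 to 4.08 for Eif4ebp3.

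Member genes passing as higher numbered 0, and 1 (Eif2s3y) with library totals, no filter, DESeq2, limma-voom or the deposited signal plus 0.5 or 2. Those passing as lower numbered 0, 1 with no filter (Eif2s3x) or the signal plus 0.5 (Eif4a1), and 2 with the signal plus 2 (both), and 0 in either direction with any library left out. Of all genes, 1.27% passed with median of ratios, 1.12% with upper quartile, 1.15% with library totals, 2.23% with no filter, 4.80% and 4.32% with the signal plus 0.5 or 2, and 0.757% with the block. The median difference of all genes moved from -0.12 with TMM to 0.03, 0.27 and 0.38 with median of ratios, upper quartile and library totals, and relative to it the median of the members was -0.84, -0.73, -0.84 and -0.89, with 42, 42, 37 and 34 of 55 below 0.

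Member transcripts passing as lower numbered 1, and 0 with upper quartile, library totals, thinning or any library left out. With no filter, which called 1.43% of all transcripts, they numbered 5. They numbered 7 with DESeq2 and 6 with limma-voom, which called 15.6% and 7.93% of all transcripts. Those passing as higher numbered 1, 10 with DESeq2, 5 with limma-voom, and 0 to 1 with a library left out (0 without any control or knockdown replicate 1). For either count the cause was not tested, except that leaving out a library leaves fewer samples. With the replicate number as a block, 0 member transcripts passed as lower and 0 as higher, so that the calls of Eif4a1-202 (adjusted p = 0.0730) and Eif1-201 (0.0803) ended; the numbers did not pair the samples, since deviations of same-numbered libraries correlated at 0.000422, 0.00804 and -0.0151. The group difference in the retained-intron share of members was 7.73 percentage points, and 4.52 without Eif4a1; the log2 ratio of Eif4a1 to Eif4a2 differed by -2.17, and by -1.44 with transcript sums. With counts thinned to equal depth, 0 of 53 member genes passed (1.32% of all genes). Of 97 member transcripts only Eif4a1-202 passed then (edgeR adjusted p = 0.0130, where 0.509% of all transcripts passed). The labelled libraries held at most 13998400 counts each, and the part of depth in the spread of low genes was not tested.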

Other observations

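Some other initiation factor transcripts, chosen here after their values were seen, were detected in 1 group only. Eif4a2-203, a protein-coding form, was at 10.5, 20.6 and 32.6 CPM in the controls, from 339, 1482 and 857 estimated counts, and at 0 in all 3 libraries labelled Jun knockdown (edgeR adjusted p = 0.0967, and 0.000372 by DESeq2). Eif5a-201, a protein-coding form of Eif5a, was at 9.44, 7.65 and 7.39 CPM and also at 0 in all 3 (0.0974 and 0.00196). The protein-coding forms Eif2ak4-202 and Eif2ak4-205 of the amino acid shortage kinase were at 0 in every control and at 10.0, 1.245 and 0.668 CPM for Eif2ak4-202 and 7.78, 0.975 and 0.547 CPM for Eif2ak4-205 in the labelled libraries, with adjusted p-values of 0.105 and 0.101 by edgeR and 0.00502 and 0.00720 by DESeq2. None of these 4 passed with edgeR, while limma-voom (7.93% of all transcripts) and DESeq2 (15.6%) called all 4. Transcripts at 0 in a whole group were not counted over all genes, so these 4 cannot be read as particular to the members. The part of depth in these zeros was not tested.

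Forms of the genes whose levels moved apart were also uneven. The Eif4a2 coding form Eif4a2-201 took 43.8, 16.1 and 64.8% of that gene's transcript counts in the controls against 3.61, 0 and 0% in the libraries labelled Jun knockdown, while Eif4a2-202, another coding form, took 22.2, 34.6 and 0.0822% against 39.5, 58.5 and 43.6%. The retained-intron form Eif2s3y-206 was at 3.02, 2.22 and 1.94 against 95.02, 72.8 and 47.0 CPM (edgeR adjusted p = 0.0949, and 0.0104 by DESeq2), and the coding form Eif2s3y-201 at 10.1, 39.8 and 131 against 113, 111 and 128 CPM. In Eif2a the coding form Eif2a-201 took 89.4, 72.0 and 95.9% of transcript counts in the controls against 0, 22.6 and 0% in the labelled libraries. Over all members, protein-coding forms took 96.8 ± 0.781% and 84.6 ± 1.28% of transcript counts, forms annotated for nonsense-mediated decay 1.66 ± 0.168% and 3.33 ± 1.425%, and processed transcripts 0.568 ± 0.141% and 3.38 ± 0.575% (SD, n = 3 each, exact permutation p = 0.1 each, the smallest possible).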
